A study of Homo sapiens with 18 samples.

Results

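FOSL1 and JUND are subunits of AP-1, a dimeric transcription factor, and both stood in the authors' deposited table of genes that differed between FTO-depleted and control UMRC2 cells. They were picked by name, 2 of the 1242 genes in that table, and they were picked because FOSL1 was high and JUND was low with the hairpin shFTO#5. Their values in that comparison are therefore a description and carry no test. UMRC2 is an established line of clear cell renal cell carcinoma, and FTO is an enzyme that takes the methyl group off N6-methyladenosine (m6A) in RNA. The labels gave 3 groups of 2 RNA-seq libraries: cells with the hairpin shControl, with shFTO#2 and with shFTO#5, the latter pair directed against FTO. All were grown in the same serum-containing medium, and no other agent or allele was named. The series has 18 samples, of which 12 were libraries of the m6A assay (input and immunoprecipitate), not analysed here.

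AP-1 is assembled from 1 JUN protein (JUN, JUNB or JUND) paired with another JUN protein or with a FOS protein (FOS, FOSB, FOSL1 or FOSL2), and the pair binds a short palindrome in promoters and enhancers through basic leucine zippers. FOSL1, also called FRA-1, has no strong activation domain of its own, must pair with a JUN protein, accumulates under sustained RAS-ERK signalling and is known from invasive carcinomas. JUND is made at a steady level in most resting tissues, can restrain growth in mouse fibroblasts and is bound by the tumour suppressor menin. Genes of proteases and matrix proteins, such as urokinase, are textbook targets of AP-1.

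FTO itself, the check of the hairpins, measured 1.99 and 2.37 FPKM (reads per kilobase of transcript and scaled to the library total) in the shControl libraries, 0.882 and 0.720 with shFTO#2 and 0.555 and 0.526 with shFTO#5. All 4 knockdown libraries lay below both controls, and 36.7% and 24.8% of the control mean were left. The library totals behind the FPKM ran from 14548533 to 18184675 reads. The table holds only genes that passed the authors' adjusted p of 0.05 for shFTO#5, which was 13.0% of the 9551 genes they tested, with 8.18% higher and 4.83% lower. A gene outside it had no value here and may be unchanged, untested or not expressed. Of 12 renal markers, 7 were in the table, 5 higher and 2 lower with shFTO#5. KRT18 (0.65, log2 difference with shFTO#5), ANGPTL4 (0.53), CA9 (0.40) and PAX8 (0.18) were among the higher ones. PAX2 (-0.53) and LRP2 (-0.58) were the lower ones. PAX8 measured 79.3 and 76.4 FPKM in the controls. KRT18 has 68 annotated pseudogenes, and reads shared with them could not be separated. Of 12 immune, endothelial and fibroblast markers, 0 were in the table, which gives no level for them. The labels tie no replicate to a culture of its own; errors and p-values reflect library-to-library spread that may be purely technical.

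FOSL1 was higher in every knockdown library, and with shFTO#5 it had the third largest rise of the 1242 genes on the log2(FPKM + 1) scale. FOSL1 (ENSG00000175592) lies on hg38 chromosome 11, 65892049 to 65900573, minus strand, is protein coding with 4 exons, and overlaps 0 other annotated genes. It measured 110 and 119 FPKM in the shControl libraries, 232 and 241 with shFTO#5, and 204.7 and 200.4 with shFTO#2. The 4 knockdown libraries lay above both controls with no overlap. Averaged by group, FOSL1 stood at 114 ± 5.85 FPKM in shControl, at 236 ± 6.19 in shFTO#5 and at 203 ± 3.03 in shFTO#2 cells (SD, n = 2 a group); the latter values are 2.07-fold and 1.77-fold the control. Any shFTO#5 library divided by any control library gave a ratio between 1.96 and 2.18. On the log2(FPKM + 1) scale the difference was 1.04 ± 0.04 (SE) with shFTO#5. The counts behind these values were 3214 to 6753 reads a library. The annotation lists 1 processed pseudogene of FOSL1, and reads shared with it could not be separated here.

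JUND went the other way and had the fifth largest fall among the same genes. JUND (ENSG00000130522) lies on hg38 chromosome 19, 18279760 to 18281622, minus strand, is protein coding, consists of a single exon and overlaps 0 other annotated genes. It measured 256 and 269 FPKM in the shControl libraries, 151 and 155 with shFTO#5, and 156 and 182 with shFTO#2. The 4 knockdown libraries lay below both controls with no overlap, but the shFTO#2 libraries lay apart from each other. Averaged by group, JUND stood at 263 ± 8.70 FPKM in shControl, at 153 ± 3.06 in shFTO#5 and at 169 ± 18.7 in shFTO#2 cells (SD, n = 2 a group), or 58.3% and 64.4% of its control mean. On the log2(FPKM + 1) scale JUND differed by -0.78 ± 0.03 (SE) with shFTO#5. The coefficient of variation of the shFTO#2 pair was 11.0%, against 1.40% and 1.37% from counting error alone. Their 95% exact Poisson intervals, 151.8 to 160.4 and 177.6 to 187.4 FPKM, did not overlap and cover counting error only. In bulk RNA, a change in transcript per cell and a change in the number of cells that carry it cannot be told apart, for either gene.

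**Figure D1:**
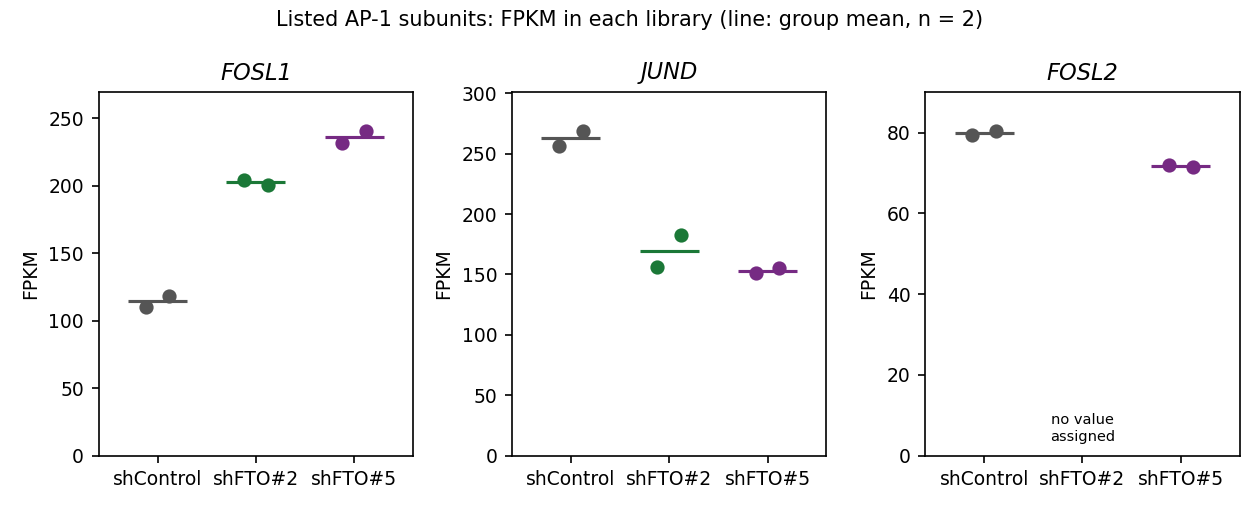
FPKM (vertical axes, from 0) of FOSL1, JUND and FOSL2 in each library, with points for the 2 libraries of a group and a line for their mean. FOSL1 lies at 110 and 119 FPKM in shControl and at 200.4 or more in all knockdown libraries, JUND falls from 256 and 269 to between 151 and 182, and FOSL2 has no assigned shFTO#2 value.

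The genes next in rank give the scale of these differences. Above FOSL1 stood ALDH2, mitochondrial aldehyde dehydrogenase, at 2.84 ± 0.05 (log2 difference with shFTO#5, SE), and below it CDCP1, a transmembrane glycoprotein, at 0.97 ± 0.07. JUND lay between ERBB3, a receptor of the epidermal growth factor receptor family, at -0.75 ± 0.06, and CYS1, a protein of the primary cilium, at -0.79 ± 0.07. The differences of JUND, ERBB3 and CYS1 lay within 1 SE of each other. At control level FOSL1 stood at the 81.6th percentile of listed genes in FPKM and JUND at the 91.7th. With shFTO#5 they stood at the 90.1th and the 84.8th percentile, so their order was exchanged.

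The hairpin shFTO#2 was not used in choosing the genes, but its control libraries are the same. Its values were out of row order in the deposited table and were tied to genes through whole reads, gene order, direction and level, for 561 of 766 entries. Both genes received the same entry when level was ignored. Of the 766 entries, 1 was a whole number of reads with the length of FOSL1, and 2 were with the length of JUND, of which 1 matched in level. FOSL1 rose by 0.82 ± 0.04 (log2 difference, SE) with shFTO#2, and limma's adjusted p over the 561 genes was 9.83e-07. JUND fell by 0.63 ± 0.06, with limma's adjusted p at 3.77e-05. Passing this test sets neither gene apart, since 100.0% of the 561 genes passed it (62.9% higher and 37.1% lower): every assigned entry was already a call of the authors, who called 7.63% of the 10038 genes they tested. Centring each library on its median, which lowered the median shFTO#2 difference by more than 0.1, gave 0.67 for FOSL1 and -0.78 for JUND. That median was taken over called genes only, so it is not a reference of unchanged genes. The ranks were 11 among the rises and 15 among the falls of the 561 genes. In the authors' deposited table, with the sign turned to knockdown over control, the log2 changes were 1.04 and 0.80 for FOSL1 and -0.72 and -0.49 for JUND, for shFTO#5 and shFTO#2. A two-sided exact permutation test of either gene with shFTO#2 gave p = 0.333, the smallest that 2 libraries against 2 can give.

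FOSL1 was lower with shFTO#2 than with shFTO#5, by 0.22 on the log2 scale (difference -0.22 ± 0.04, SE). JUND differed by 0.14 ± 0.06 between the hairpins in the opposite sense, and this value rested on which shFTO#2 library was counted: it was 0.25 without the first and 0.03 without the second. Both genes were chosen for their shFTO#5 values, so a larger difference with that hairpin is favoured by the choice and nothing is read from it.

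Taken per length, FOSL1 and JUND transcripts changed places. FOSL1 over JUND, a ratio of FPKM, was 0.430 and 0.441 in the shControl libraries, 1.31 and 1.10 with shFTO#2 and 1.54 and 1.55 with shFTO#5. Every control library held more JUND than FOSL1 by FPKM, and every knockdown library more FOSL1 than JUND. These ratios are not adjusted for GC content. The quintile of listed genes by GC content that held FOSL1 had a median log2 difference of 0.15 with shFTO#5 and 0.19 with shFTO#2. That of JUND had -0.31 and -0.27. Less these medians, FOSL1 and JUND differed by 0.89 and -0.47 with shFTO#5, and by 0.63 and -0.36 with shFTO#2. Applied to the control means, these differences would still exchange the order with shFTO#5 but not with shFTO#2. The medians are of called genes only, and the part of GC content was not tested. A rise of the ratio with shFTO#5 was favoured by choosing 1 gene that rose and 1 that fell. The group means of the ratio were 0.435 ± 0.00785, 1.21 ± 0.151 and 1.54 ± 0.00955 (SD, n = 2 each). The sum of both genes was 367 and 387 FPKM in shControl, 361 and 383 with shFTO#2 and 383 and 396 with shFTO#5. These sums overlapped between the groups, with means of 377 ± 14.6, 372 ± 15.7 and 389 ± 9.25 FPKM.

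**Figure D2:**
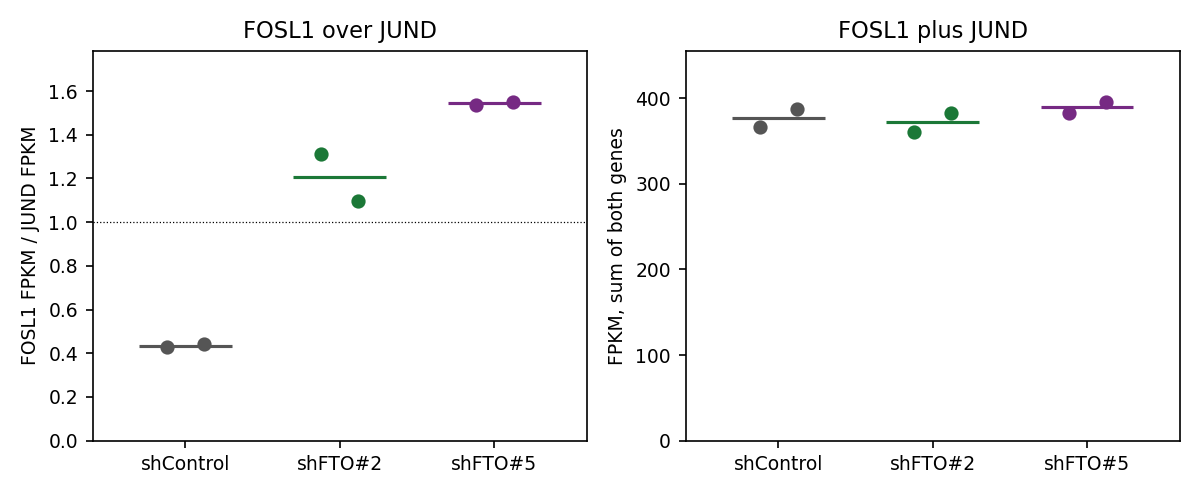
Left, FPKM of FOSL1 divided by FPKM of JUND in each library, with a dotted line at 1. Right, the sum of both in FPKM; points are libraries and lines are the means of 2, and the ratio moves from 0.430 and 0.441 to 1.10 or more while the sums lie between 361 and 396 FPKM.

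Of the 7 FOS and JUN genes, 3 were in the table, beside 13.0% of all genes tested, and FOSL2 was the other one; FOSL1 and JUND were chosen from the table, so nothing is read from this count. FOSL2, which like FOSL1 lacks a strong activation domain, lies on hg38 chromosome 2, 28392448 to 28417312, plus strand, and overlaps 2 annotated genes whose reads may be mixed with its own. It measured 79.5 and 80.4 FPKM in shControl and 72.1 and 71.4 with shFTO#5. The groups did not overlap, and the difference was small, -0.15 ± 0.04 (log2, SE). No shFTO#2 value could be tied to it. FOS, FOSB, JUN and JUNB were not in the table. Of the FPKM summed over the 3 listed genes, FOSL1 made up 25.0% ± 0.446 in shControl and 51.3% ± 0.368 with shFTO#5, JUND 57.5% ± 0.0128 and 33.2% ± 0.0335, and FOSL2 17.5% ± 0.433 and 15.6% ± 0.402 (SD, n = 2). The sum itself was 457 ± 15.2 and 461 ± 8.76 FPKM.

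Of 40 other basic leucine zipper factors that can pair or compete with AP-1, 3 were in the table (7.50%, beside 13.0% of all genes tested), 1 higher and 2 lower; how many of the 40 were tested is not known. DBP, a circadian factor, was lower with shFTO#5 (-0.52 ± 0.06, SE) and with shFTO#2 (-0.44 ± 0.06). MAFF, a small MAF protein, was higher with shFTO#5 (0.42 ± 0.06), and CREB3L2, a membrane-bound factor, was lower (-0.40 ± 0.07). Of 35 kinases, ubiquitin ligases, cofactors and serum response factors upstream of AP-1, 2 were in the table (5.71%, beside 13.0%) and both were higher, as were 62.9% of all listed genes. These were MAP2K3, a kinase that activates p38 (0.27 ± 0.04 with shFTO#5, 0.31 ± 0.03 with shFTO#2), and NACA, which can act as a coactivator of JUN (0.29 ± 0.04 and 0.17 ± 0.03). NACA has 6 annotated pseudogenes, and reads shared with them could not be separated. The other genes of this list, RAS, RAF, ERK, JNK and menin among them, were not in the table. MAP3K11, a kinase upstream of JNK that was not on the list, was lower (-0.26 ± 0.04 with shFTO#5).

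Of 32 textbook AP-1 target genes, 10 were in the table (31.2%, beside 13.0% of all genes tested), 8 higher and 2 lower with shFTO#5, and their median log2 difference was 0.29, beside 0.15 over all 1242 listed genes, of which 62.9% were higher. The counts were not tested, and nothing is called particular to these genes from them. Urokinase and its receptor had the largest differences of the list. PLAU, the protease urokinase, measured 5.01 and 5.49 FPKM in shControl, 10.6 and 11.2 with shFTO#2 and 9.57 and 9.87 with shFTO#5, and the knockdown libraries did not overlap the controls. PLAUR, the receptor of urokinase, measured 6.22 and 6.42 FPKM in shControl, 11.9 and 11.5 with shFTO#2 and 10.2 and 12.2 with shFTO#5. The log2 differences with shFTO#5 and shFTO#2 were 0.78 ± 0.06 and 0.93 ± 0.06 for PLAU, and 0.73 ± 0.07 and 0.80 ± 0.07 for PLAUR.

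CD44, the hyaluronan receptor, was higher by 0.46 ± 0.05 with shFTO#5. CCND1, cyclin D1 of the G1 phase, was higher by 0.44 ± 0.04, and by 0.41 ± 0.03 with shFTO#2. The 2 lower targets were FTH1, the ferritin heavy chain (-0.43 ± 0.04), and FN1, fibronectin (-0.43 ± 0.06 with shFTO#5, -0.52 ± 0.06 with shFTO#2). FTH1 has 25 annotated pseudogenes and its value is uncertain for that reason. AXL, HMGA1, LIF and TIMP1 made up the rest, at 0.28 to 0.29, and HMGA1 has 7 annotated pseudogenes. With shFTO#2, 7 of the 10 targets had values, beside 561 of all 1242 listed genes. Of these targets 6 were higher and 1 lower, with a median of 0.34, beside 62.9% higher and 0.17 over the 561 genes.

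RAS-ERK signalling is a pathway known to raise FOSL1. Of 17 genes that read it out, 6 were in the table (35.3%, beside 13.0% of all genes tested), 5 higher and 1 lower, with a median of 0.46 beside 0.15 and 62.9% higher over all listed genes. The counts were not tested, nothing is read from them, and whether this pathway had a part in the FOSL1 rise was not tested. IER3, a stress and survival factor, was higher by 0.68 ± 0.05 with shFTO#5 and 0.45 ± 0.05 with shFTO#2. DUSP5, a nuclear phosphatase of ERK, was higher by 0.53 ± 0.07, and EPHA2, an ephrin receptor, by 0.48 ± 0.04 and 0.40 ± 0.04. PHLDA1 was higher by 0.33 ± 0.06 and 0.37 ± 0.05. EGR1, a zinc finger factor induced within minutes of stimulation, was lower by the same amount with both hairpins, at -0.57 ± 0.06 each.

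Of 26 serum-induced immediate early genes, the class that FOS and JUN belong to, 10 were in the table (38.5%, beside 13.0%), 4 higher and 6 lower, with a median of -0.39 beside 0.15 and 62.9% higher over all listed genes. The counts of this list, and its difference from the ERK list, were not tested. The lower ones were led by BTG1 (-0.67 ± 0.05), an antiproliferative factor, ZFP36 (-0.65 ± 0.06), which binds AU-rich elements and directs mRNA decay, EGR1 and BTG2 (-0.56 ± 0.08), a relative of BTG1. ZFP36L2, a relative of ZFP36, was lower by 0.48 with shFTO#5 (difference -0.48 ± 0.04) and differed by -0.26 ± 0.05 with shFTO#2. IER3 and EGR1 are in both lists, and CCND1 is in the ERK and the target list, so these lists overlap. With shFTO#2, 5 of the 6 ERK genes had values (4 higher, 1 lower, median 0.40) and 5 of the 10 immediate early genes (2 higher, 3 lower, median -0.26). Over all listed genes, 561 of 1242 had such values, 62.9% of them higher, with a median of 0.17.

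**Figure D3:**
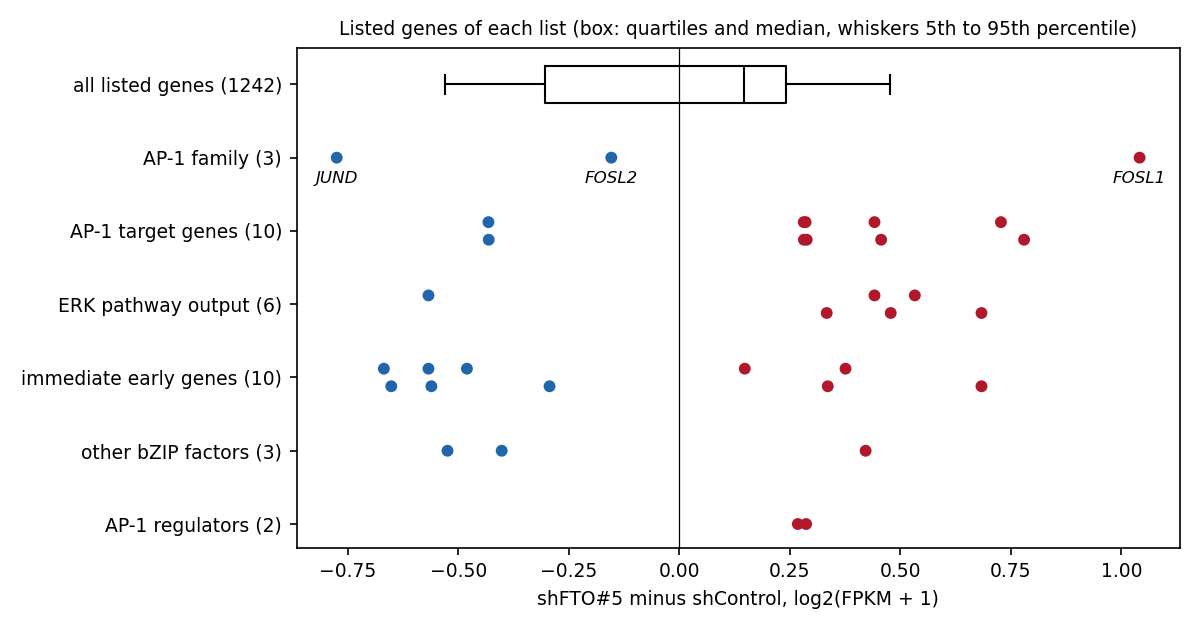
Log2(FPKM + 1) difference, shFTO#5 minus shControl, of each listed gene (points, red higher and blue lower) in 6 gene lists, with a box for all 1242 listed genes. Points are offset up and down only for legibility; FOSL1 at 1.04 and JUND at -0.78 lie outside the whiskers, and 8 of 10 target genes but 4 of 10 immediate early genes lie above 0.

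**Figure D4:**
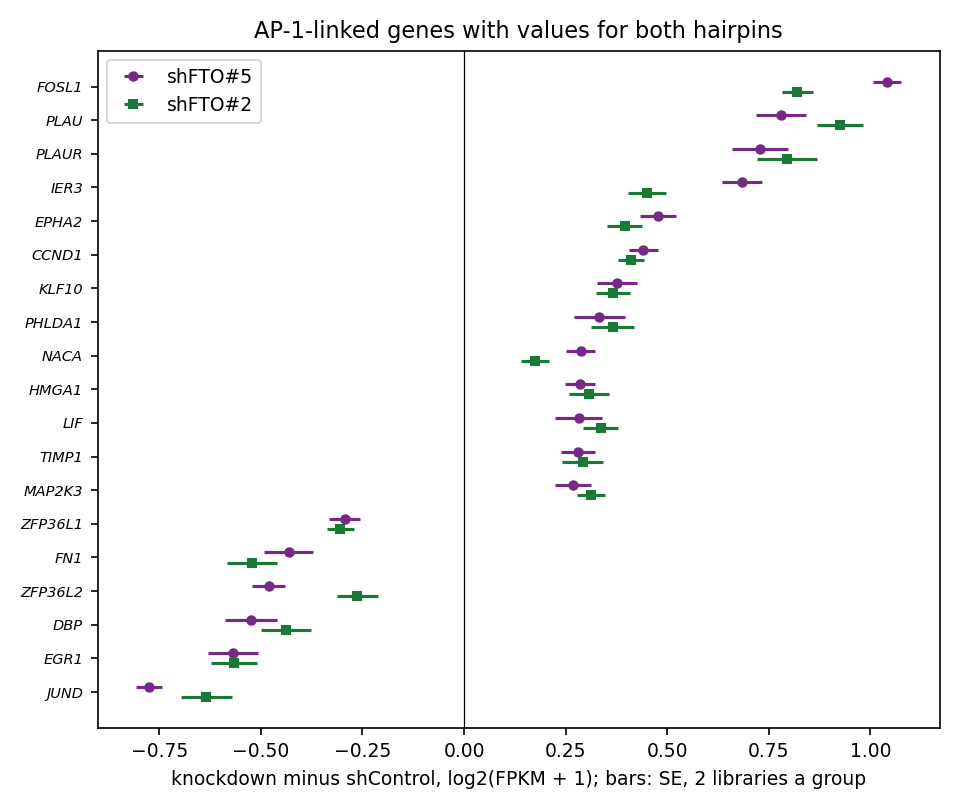
Log2(FPKM + 1) difference from shControl, with SE, of the 19 genes of these lists that had values for both hairpins (circles shFTO#5, squares shFTO#2). Both hairpins share the same control libraries. The SE bars do not overlap for FOSL1 (1.04 and 0.82), JUND (-0.78 and -0.63), IER3 (0.68 and 0.45), ZFP36L2 (-0.48 and -0.26) and NACA (0.29 and 0.17). Nor do they for PLAU (0.78 and 0.93), which is larger with shFTO#2. EGR1 lies at -0.57 with both.

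The genes whose pattern over the 4 shControl and shFTO#5 libraries was nearest to each member, by Euclidean distance of log2 changes from the control mean, were found among all listed genes. Nearest to FOSL1 were CDCP1 (distance 0.127), TM4SF1, a small membrane protein of tumour cells (0.170), the long noncoding RNA CCAT1 (0.195), IRAK2, a kinase of interleukin-1 receptor signalling (0.201), and SLCO4A1, an organic anion transporter (0.227). Their log2 differences with shFTO#5 ran from 0.88 ± 0.04 for SLCO4A1 to 0.97 ± 0.07 for CDCP1. Nearest to JUND were ERBB3 (0.0557), MSC, a basic helix-loop-helix repressor (0.0778), RGL1, an exchange factor for Ral (0.115), SLCO4C1, a kidney organic anion transporter (0.125), and SFRP4, a secreted Wnt antagonist (0.127). Their differences ran from -0.75 ± 0.06 for ERBB3 to -0.70 ± 0.06 for RGL1. With a pseudocount of 0.1 FPKM in place of 1, 6 of these 10 genes were again named.

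Listed genes near FOSL1 differed in direction among themselves. Within 500 kb of it lay 7 listed genes, of which EHBP1L1, RIN1, BRMS1 and SF3B2 were higher with shFTO#5 (0.14 to 0.35) and AP5B1, PCNXL3 and MAP3K11 were lower (-0.35 to -0.20). The nearest, AP5B1, lay 111 kb away. No listed gene lay within 500 kb of JUND. How many genes of either window were tested is not known. Of all genes tested 13.0% were listed, and 62.9% of the listed genes were higher. Nothing is read from these counts.

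The sequence of the JUND promoter is shown because JUND is itself a gene with cyclic AMP response-type elements, the sites that FOS/JUN and JUN/ATF pairs can bind, and that of PLAUR because it was the target gene with a consensus AP-1 site. Sequences are the 250 bases before the start site from the RefSeq table (GRCh38.p14), 5′ to 3′ on the gene's strand. Of the 2 members, 1 had an entry, JUND; FOSL1 is named only. Capitals mark TGANTCA, TGACGTCA or GACGTCA on either strand, the last of which is contained in the second. JUND is chr19:18281623-18281872 and PLAUR is chr19:43670170-43670419, both minus strand.
JUND: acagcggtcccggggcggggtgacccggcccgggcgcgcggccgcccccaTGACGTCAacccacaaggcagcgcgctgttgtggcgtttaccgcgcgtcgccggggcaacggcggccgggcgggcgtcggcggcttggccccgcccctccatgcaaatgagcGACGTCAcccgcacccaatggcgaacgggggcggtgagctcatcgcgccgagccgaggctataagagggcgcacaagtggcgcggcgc
PLAUR: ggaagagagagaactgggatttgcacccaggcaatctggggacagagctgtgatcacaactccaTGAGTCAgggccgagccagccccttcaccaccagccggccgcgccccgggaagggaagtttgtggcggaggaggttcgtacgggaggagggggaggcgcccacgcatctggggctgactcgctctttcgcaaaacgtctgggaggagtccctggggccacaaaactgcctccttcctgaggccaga
The JUND window had a GC content of 74.8% and held TGACGTCA 200 bases and a further GACGTCA 88 bases before the start site. PLAUR held TGAGTCA 186 bases before its start. FN1, lower with both hairpins, held TGACGTCA 183 bases before its start. The table held 10 promoters, of 7 of the 10 listed target genes, and apart from those of PLAUR and FN1 none of them held any of these motifs (PLAU, AXL and HMGA1 with 2 promoters each, CD44 and TIMP1 with 1). Over all 35116 promoters in the table, 6.57% held TGANTCA, 1.65% TGACGTCA and 3.12% GACGTCA. The shares were 4.59%, 1.71% and 4.06% among promoters of listed genes higher with shFTO#5, and 3.50%, 2.58% and 2.95% among those lower. A match is a run of letters and not a measured site of binding.

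Since FTO acts on m6A, the longest coding transcript of each gene (GENCODE 29, hg38) was searched on its own strand for GGACT, the commonest form of the m6A consensus. FOSL1 held 0, FOSL2 held 7 and JUND held 2, both in the 3′ UTR, at positions 1256 and 1360 of the transcript, and 93.0% of 1222 listed genes held at least 1. The JUND sites are shown with 10 bases on either side, minus strand, capitals marking GGACT, at chr19:18280353-18280377 and chr19:18280249-18280273.
JUND site 1: tgggcgccccGGACTtggagagggt
JUND site 2: agggtgcccaGGACTcgacaagctg
ATTTA, the core of the AU-rich elements that ZFP36 proteins bind, occurred 1 time in FOSL1, 2 times in JUND and 9 times in FOSL2, and 79.9% of the listed genes held at least 1. These are letters in the annotated transcripts, and methylation was not measured here.

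JUND and FOSL1 also differed in base composition. GC content was 69.7% in JUND, at the 99.2th percentile of the 1222 listed genes with a coding transcript, and 60.0% in FOSL1, at the 79.4th, beside a median of 51.6%. Across these genes GC content moved with the shFTO#5 difference. Split into quintiles of GC content, the median log2 difference was 0.17, 0.19, 0.19 and 0.15 in the lower 4 and -0.31 in the top quintile, which held JUND, and 21.6% of the top quintile was higher. With shFTO#2 the top quintile had a median of -0.27 and 30.3% higher. Across the 1222 genes, which are not independent and share libraries, Pearson's r of GC content and difference was -0.28 and Spearman's rho was -0.27. The same quintiles differed little between replicates, with medians of replicate 2 minus replicate 1 of -0.02 to 0.05 in shControl and -0.01 to 0.02 with shFTO#5.

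Read against the genes of its own quintile, JUND was lower by less: -0.47 with shFTO#5 and -0.36 with shFTO#2. It had the second largest fall of the 245 genes in that quintile. The 50 genes nearest to it in GC content (66.5% to 72.7%) had a median of -0.37 and a range of -0.69 to 0.35, and 5 of them were higher, so JUND at -0.78 lay below all of them. FOSL1 against its own quintile was 0.89 with shFTO#5 and 0.63 with shFTO#2, with the second largest rise of 244 genes. The 50 genes nearest to FOSL1 in GC content (59.4% to 60.7%) had a median of 0.11 and a range of -0.64 to 0.71, below the 1.04 of FOSL1. Both genes were chosen for their shFTO#5 differences, so such places among genes of like GC content were favoured by the choice and nothing is read from them. Quintile medians and nearest genes came from called genes only. They do not give the shift of all genes of like GC content. The part of GC content in these differences was not tested. Of the 8 higher target genes, HMGA1 was in the top quintile of GC content, and of the 6 lower immediate early genes none was. That quintile held 245 of the 1222 genes, and nothing is read from these small counts.

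**Figure D5:**
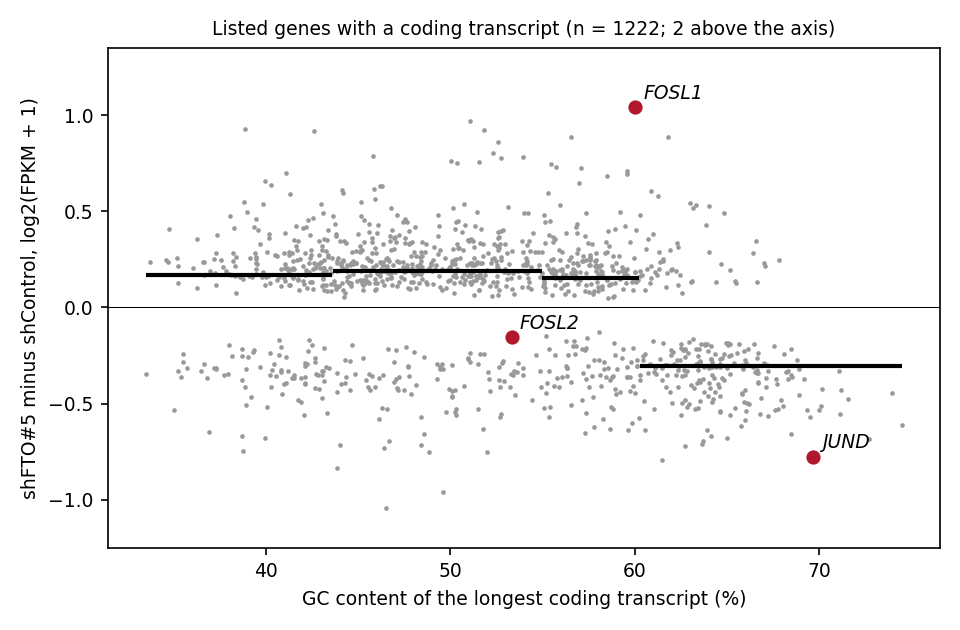
GC content in percent of the longest coding transcript (horizontal axis) against the log2(FPKM + 1) difference, shFTO#5 minus shControl (vertical axis), for 1222 listed genes, 2 of which lie above the axis. Black bars are medians of the quintiles of GC content; JUND lies at 69.7% and -0.78, below the top quintile's median of -0.31, and FOSL1 at 60.0% and 1.04.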

How the data were processed

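The authors deposited FPKM values per library, gene lengths, and, from their own comparisons, p-values, adjusted p-values and log2 fold changes, per the file headers. The submitters' processing notes name hg38 as the build and RSEM, STAR and Trim Galore 0.4.2 as tools; for the differential test, the annotation and strandedness, the tool or setting was not given in the sources used here. The deposited log2 fold changes had the sign of control over knockdown and were turned round. The design text and the sample titles number the hairpins differently, and the titles were followed.

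FPKM times gene length gave whole reads (tolerance 1e-05) for all 1242 values of each shControl and shFTO#5 library, which gave the library totals. The tested totals of genes came from the ratio of the authors' adjusted p to p. The shFTO#2 entries were matched to genes whose length gave whole reads in both libraries, with the direction of the authors' fold change and a log2 level within 0.15 or within the size of that fold change, and the longest chain in gene order was kept. The values left a single longest chain of 561 genes. Chi-square over degrees of freedom between replicates was 3.58 in shControl, 4.54 in shFTO#2 and 2.41 in shFTO#5, above counting error, so each replicate was kept.

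Limma 3.58.1 in R 4.3.3 was fitted with an intensity trend on log2(FPKM + 1), a scale that understates changes of low genes, with a minimum of 1 FPKM in 2 or more libraries, which all 1242 genes passed. The shFTO#5 fit used 4 libraries and gave differences with SE and no p, since those values chose the genes, and the hairpin difference was treated in the same way. The shFTO#2 fit used 6 libraries and 561 genes, with Benjamini-Hochberg adjustment. Both fits saw called genes only, so the spread they estimate is that of genes selected for differing. Matching and fits were also run on simulated data. The simulated fits held mostly unchanged genes, whereas every gene fitted here was a call, so they do not cover this setting.

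The genes and the gene lists were chosen with earlier results of these data known. 1 target gene is not reported here and is left out of its list. The text names FOSL1, JUND, every listed FOS or JUN gene, up to 6 genes a list with the largest absolute shFTO#5 difference, the 5 genes nearest in pattern to each, the neighbours in rank, and FTO. Genes named beyond this rule (the genes near FOSL1 and the remaining target genes) were chosen after their values were seen. Alternatives were other pseudocounts, scalings, no filter, leaving out replicates and a replicate block.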

Additional observations from a re-analysis of the deposited data

How the results depend on the processing

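Of 111 recalculations, 0 changed direction or side of a threshold, and 11 were counted as moved. Some of the 111 could not change by design. All 1242 genes passed the filter, and a replicate block keeps the differences of balanced groups. A library outside a comparison does not enter its difference. The shFTO#2 differences, which have a test, were judged by direction and threshold: FOSL1 went from 0.82 to 0.67 with centring and 0.78 with quantile normalization, and JUND from -0.63 to -0.78 and -0.76, and the moves with centring, and that of JUND with quantile normalization, exceeded the spread between replicates. With libraries centred on their median, FOSL1 with shFTO#5 was 0.95, JUND -0.86 and the hairpin difference of FOSL1 -0.26; with quantile normalization these were 0.95, -0.87 and -0.18. Relative to the median of its quintile of GC content, a choice made after seeing the data, FOSL1 was 0.89 and JUND -0.47 with shFTO#5, and 0.63 and -0.36 with shFTO#2. Centring adds the same amount to every gene of a comparison, and the quintile values are the differences less the quintile median. Both kinds of median were taken over called genes only, so neither is a reference of unchanged genes. Why the listed genes shifted as a whole was not tested. Centring shifted the median of the listed genes by -0.0887 for shFTO#5 and -0.149 for shFTO#2, and the shFTO#2 calls went from 353 higher and 208 lower to 191 higher and 208 lower, or 266 and 204 with quantile normalization. No listed gene of the lists changed direction under these scalings.

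Leaving out 1 library at a time gave 0.99 to 1.09 for FOSL1 and -0.81 to -0.74 for JUND with shFTO#5, and 0.77 to 0.87 and -0.75 to -0.52 with shFTO#2, where the remaining single library is assumed to vary like the other groups. The hairpin difference ran from -0.25 to -0.19 for FOSL1 and from 0.03 to 0.25 for JUND. The labels number the replicates and do not say whether same-numbered libraries were handled together. Deviations of same-numbered libraries correlated weakly and positively, at r = 0.0884 (shControl and shFTO#5), 0.218 (shControl and shFTO#2) and 0.117 (shFTO#2 and shFTO#5). A shared replicate batch was not tested. A replicate block cannot alter the differences of balanced groups, so FOSL1 stayed at 0.82 and JUND at -0.63 with shFTO#2. The SE of FOSL1 went from 0.04 to 0.03 and that of JUND from 0.06 to 0.04. As without the block, 561 genes were called. Listed genes had at least 81 reads in each library, in a table restricted to called genes, and 2 libraries a group limit the precision.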
